A study of Mus musculus with 18 samples.

Results

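The let-7 miRNAs were read in small RNA of mouse bone marrow-derived DC and of the EV these cells released. The set comprised let-7a-5p, let-7b-5p, let-7c-5p, let-7d-5p, let-7f-5p, let-7g-5p, let-7i-5p, miR-98-5p and let-7d-3p, which is the opposite arm of the let-7d hairpin. Members were chosen by their mature name among the miRNA entries of the count table, and let-7e, which is encoded in another cluster, was left out. These 9 names were 9 of 1907 mature miRNA names, held in 2045 miRNA entries of a table of 6017 entries. The 9 names stood in 12 entries, because let-7a, let-7c and let-7f each have a pair of hairpins, and the entry with most reads was used for each name.

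Libraries of LPS- and VitD3-treated and of untreated cultures were compared, in EV and in the cells. Bone marrow of C57bl/6 mice aged 8 to 12 weeks was cultured with GM-CSF, and all cultures had the same genotype. LPS-EV and LPS-DC came from cells that received LPS at 1 µg/ml for 24 h from day 12, VitD3-EV and VitD3-DC from cells grown with 10 nM VitD3 for 12 days by the labels, started on day 2 by the study's methods, and control-EV and control-DC from cells without either agent. Cells were recovered on day 13 and released EV into EV-depleted medium for 20 h. Each group had 3 biological replicates (18 libraries), and replicate numbers were taken as experiment days shared by all groups. These days were a block in the edgeR tests. Their p-values therefore measure the spread between cultures that remains after mean differences between days are removed. The cultures were not sorted, the medium held FCS and supernatant of a GM-CSF producing fibroblast line, and supernatants were pooled for EV isolation. EV libraries were made from 2 ng and cellular libraries from 50 ng of small RNA.

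let-7 miRNAs were among the earliest miRNAs found in animals and accumulate as cells differentiate. They pair through bases 2 to 8, the seed, with messenger RNAs such as those of Ras genes, Hmga2 and Lin28, and lower their output. The LIN28 proteins in turn block the maturation of let-7 precursors. In myeloid cells, let-7 members are among the abundant miRNAs, and in human biliary cells let-7i is known to target TLR4, the receptor for LPS.

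The mature sequences are shown first because the 8 members of the 5p arm differ by only 1 to 6 bases, and their counts rest on those bases. Each sequence was taken from RefSeq (GRCm38.p6), in which 9 of 9 members matched by name, and is given 5′ to 3′ with the seed in capitals.
let-7a-5p: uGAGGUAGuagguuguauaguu
let-7f-5p: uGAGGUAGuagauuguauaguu
let-7c-5p: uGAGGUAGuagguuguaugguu
let-7b-5p: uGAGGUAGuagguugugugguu
let-7d-5p: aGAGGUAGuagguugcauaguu
miR-98-5p: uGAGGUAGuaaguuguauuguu
let-7g-5p: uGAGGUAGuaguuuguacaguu
let-7i-5p: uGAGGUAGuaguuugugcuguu
let-7d-3p: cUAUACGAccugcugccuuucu

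All 9 sequences are 22 nt long, so that shares of reads need no correction for length between members. The study warns that libraries of this kind capture RNAs with unequal efficiency, depending on modifications, end groups and structure. Ranks of members by reads may therefore differ from ranks by molecules, which was not tested. The 8 members of the 5p arm share 1 seed, and let-7d-3p has another. With positions counted from 1 at the 5′ end of let-7a-5p, let-7f-5p differs from it by G12A, let-7c-5p by A19G, let-7b-5p by A17G and A19G, let-7d-5p by U1A and U16C, and miR-98-5p by G11A and A19U. let-7g-5p carries G12U and U18C, and let-7i-5p carries G12U, A17G, U18C and A19U. Of the 28 pairs among the 8, 3 are 1 base apart, which are let-7a-5p with let-7f-5p, let-7a-5p with let-7c-5p, and let-7b-5p with let-7c-5p. The mismatches allowed in alignment decide how reads of such pairs are divided, and the counts of these members are uncertain to that extent. Among 1679 mouse names in the reference, 11 carry the same seed, and the others are let-7e-5p with 1343 reads over the 18 libraries, let-7k with 0 and miR-1961 with 0.

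The members are transcribed from 11 hairpins (GRCm38.p6). Mirlet7a-1 (chr13:48538179-48538272), Mirlet7f-1 (chr13:48537829-48537917) and Mirlet7d (chr13:48536012-48536114) lie on the minus strand in an exon of the lincRNA 6720427I07Rik, with starts 350 bp and 1817 bp apart. Mirlet7c-2 (chr15:85706603-85706697) and Mirlet7b (chr15:85707319-85707403) lie 716 bp apart on the plus strand in an exon of Lncppara. Mirlet7f-2 (chrX:151912346-151912428) and Mir98 (chrX:151913214-151913321) lie 868 bp apart on the plus strand in an intron of Huwe1, a ubiquitin ligase gene. Mirlet7g (chr9:106178840-106178927, plus strand) is intronic in Wdr82, and Mirlet7i (chr10:122985640-122985724, minus strand) is exonic in the transcribed pseudogene D630033A02Rik. Mirlet7a-2 (chr9:41536716-41536811) lies in an intron of 3110039I08Rik and of the lincRNA Gm49317, and Mirlet7c-1 (chr16:77599657-77599750) in an intron of Mir99ahg with Gm11146 on the opposite strand, both hairpins on the plus strand. These last hairpins have miRNA neighbours on the same strand, with Mir100 at 5291 bp and Mir125b-1 at 45210 bp from Mirlet7a-2, and Mir99a at 721 bp and Mir125b-2 at 46616 bp from Mirlet7c-1.

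EV libraries held 33337 to 329240 miRNA reads and cellular libraries 1025913 to 4247919, so that EV values carry the larger counting error. The standard errors of the tests also hold the spread between cultures, and they were not larger in EV for all members. The smallest library was LPS-EV replicate 2. All 7 listed myeloid miRNAs had reads, and they made up 24.9 to 65.8% of miRNA reads in DC. Most of this was miR-21a-5p (24.1 to 65.5%), while miR-142a-5p had 0.142 to 0.565% and miR-223-3p 0.00445 to 0.0203%. The listed epithelial miRNAs summed to 0.00876 to 0.0292% in DC. Stromal, endothelial, liver and erythroid miRNAs also had reads in DC, and the neuronal miR-124-3p had 0. Replicate 3 stood apart in all groups. In its 3 EV libraries, listed muscle miRNAs reached 6.68 to 7.42% of all miRNA reads, against at most 0.0136% in the other EV libraries, and in its 3 cellular libraries they reached 0.362 to 0.750%.

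The 9 members had 124198 reads in the EV libraries and 1818974 in the cellular libraries. Together they were 8.85 ± 1.52% of miRNA reads in LPS-EV, 7.17 ± 0.563% in VitD3-EV and 9.70 ± 0.727% in control-EV (SD, n = 3 each). In the cells they were 11.1 ± 1.24% in LPS-DC, 8.69 ± 1.87% in VitD3-DC and 11.8 ± 1.54% in control-DC (SD, n = 3 each). The EV library had the lower share in 9 of 9 pairs of EV and DC, matched by treatment and replicate number. By member, the share was lower in EV in 9 of 9 pairs for let-7i-5p and 8 of 9 for let-7f-5p. It was higher in EV in 8 of 9 pairs for let-7c-5p and 6 of 9 for let-7d-5p, and each other member was lower in 5 of 9. These shares depend on the rest of the miRNAs, since miR-21a-5p alone took 24.1 to 65.5% of miRNA reads. The total of miRNA reads sums all miRNA entries. It includes the unused entries of let-7a, let-7c and let-7f, with 223446, 28919 and 668318 reads over the 18 libraries. The shares of the members are therefore lower than with 1 entry per name in the total. Whether these entries hold the same reads counted again was not tested.

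let-7f-5p was the most abundant member, with 2.94 ± 1.01% of miRNA reads in EV and 3.82 ± 0.969% in DC (SD, n = 9 each), and ranked 4th among miRNA names in EV and 5th in DC. let-7i-5p followed with 2.38 ± 0.416% in EV and 3.41 ± 0.702% in DC, and ranked 6th in both. The order of let-7f-5p over let-7i-5p held in 7 of 9 libraries in each compartment, so that these neighbours did not differ beyond their spread. let-7g-5p had 1.33 ± 0.402% in EV and 1.40 ± 0.429% in DC. let-7a-5p had 1.15 ± 0.199% in EV and 1.23 ± 0.261% in DC. The order of let-7g-5p over let-7a-5p held in 6 of 9 libraries in each compartment, and their ranges overlapped.

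The other members were lower. let-7c-5p had 0.428 ± 0.153% of miRNA reads in EV and 0.330 ± 0.0921% in DC, and let-7d-5p had 0.219 ± 0.0812% in EV and 0.202 ± 0.110% in DC. The order of let-7a-5p over let-7c-5p and of let-7c-5p over let-7d-5p held in 9 of 9 libraries in each compartment. miR-98-5p, the member with a name outside the let-7 numbering, had 0.0684 ± 0.0168% in EV and 0.0751 ± 0.0211% in DC. let-7b-5p had 0.0431 ± 0.00463% in EV and 0.0456 ± 0.0181% in DC, and was under miR-98-5p in 9 of 9 EV libraries and 8 of 9 DC libraries. let-7b-5p and let-7c-5p, which are 1 base apart and share a transcript on chromosome 15, thus stood 66th and 18th in EV and 63rd and 17th in DC.

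**Figure D1:**
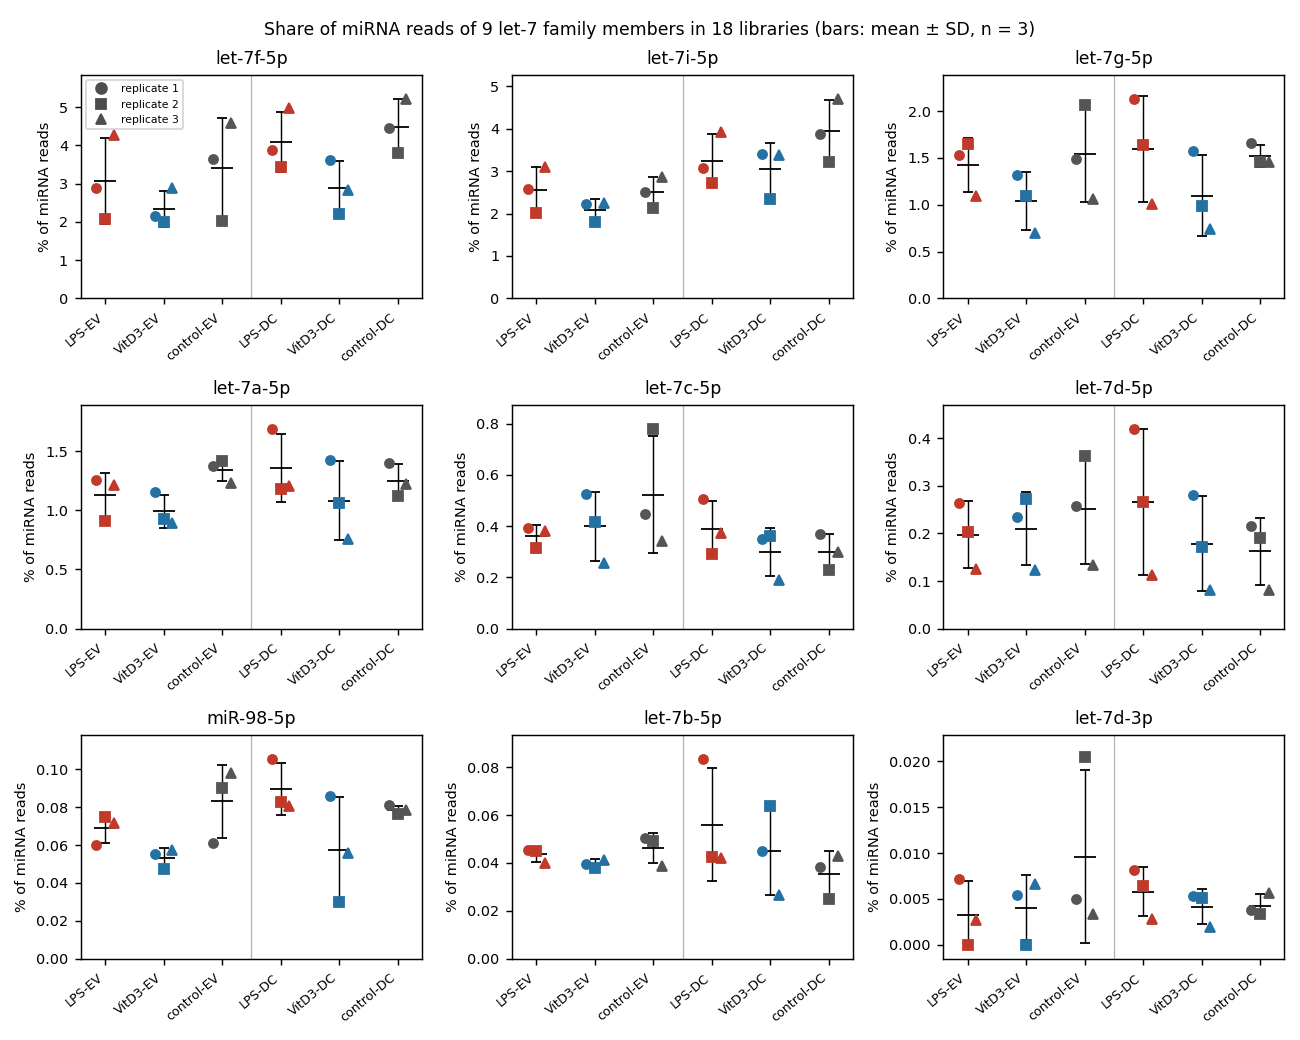
Share of miRNA reads (percent, linear axis, 1 panel per member) in the 3 libraries of each of the 6 groups, with horizontal and vertical bars for mean and SD. let-7f-5p lies between 1.99 and 5.22% and let-7d-5p is lowest in replicate 3 (triangles) of all 6 groups.

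Across the 18 libraries, the members did not vary as 1 unit. Values were log2 normalized counts centred within each compartment, and the libraries share day, depth and the scaling of shares, so the coefficients are descriptions. Coefficients without replicate 3 were added after the values had been seen. let-7f-5p and let-7i-5p had the highest Pearson coefficient of any pair (r = 0.92), which was 0.91 over the 12 libraries of replicates 1 and 2. let-7f-5p also ran with let-7a-5p (r = 0.75, and 0.76 without replicate 3), and let-7a-5p with let-7c-5p (r = 0.74, and 0.80 without replicate 3). let-7f-5p and miR-98-5p had r = 0.74, but 0.28 without replicate 3. The negative coefficients of let-7d-5p with let-7f-5p (r = -0.35) and with let-7i-5p (r = -0.44) rested on replicate 3, since they were 0.37 and 0.35 without it. Among 96 other miRNAs with a mean of at least 50 normalized counts in both compartments, the summed family was most like miR-146b-5p (r = 0.84, 18 libraries), miR-148a-3p (r = 0.81), miR-30d-5p (r = 0.78), miR-1839-5p (r = 0.78) and miR-30e-3p (r = 0.77). Without replicate 3 these coefficients were 0.93, 0.71, 0.94, 0.91 and 0.67, in the same order.

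The first question was whether LPS or VitD3 changed the members in EV. Neither did to a level that passed the test: 0 of 9 members were called at an FDR below 0.05 in LPS-EV against control-EV, where 1.42% of the 281 miRNAs tested were called, and 0 of 9 in VitD3-EV against control-EV, where 7.12% were called. LPS-EV against VitD3-EV also called 0 of 9 members, with 14.6% of all miRNAs called. These calls came from edgeR's quasi-likelihood test, and 0 members had an unadjusted p under 0.05 in any of the 3 comparisons, against 6.76, 15.7 and 22.4% of all miRNAs. DESeq2 and edgeR's likelihood ratio test called 0 members as well. The total RNA of EV is measured in bulk, so that fewer vesicles of a kind and less of an RNA per vesicle cannot be told apart, and likewise for cells.

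The intervals bound how far the EV members could have moved. For the 8 members of the 5p arm, log2FC (the log2 of the fold change) of LPS-EV over control-EV was -0.39 to 0.04, and the 95% confidence intervals together spanned -0.92 to 0.68. For VitD3-EV over control-EV, log2FC was -0.24 to 0.17 and the intervals spanned -0.92 to 0.92. For LPS-EV over VitD3-EV they spanned -0.98 to 0.68. None of these 24 intervals, which hold for TMM factors and all libraries, reached a 2-fold change in either direction. The log2FC themselves moved with these choices. In VitD3-EV over control-EV, scaling to the miRNA total gave -0.56 for let-7g-5p and -0.59 for miR-98-5p, and in LPS-EV over control-EV let-7c-5p had -0.82 without LPS-EV replicate 3. let-7d-3p, with 68 EV reads in all, had wide intervals and carries no such bound. The median log2FC of the 9 members was -0.23, -0.04 and -0.19 in the 3 comparisons, against -0.03, -0.03 and -0.06 over all miRNAs tested. These signs depended on the scaling. For LPS-EV over control-EV the members' median was 0.077 with TMM factors over all RNA classes, where all miRNAs had 0.21. For LPS-EV over VitD3-EV it was 0.19 under scaling to the miRNA total and 0.17 with TMM over all classes, where all miRNAs had 0.19 in both. For VitD3-EV over control-EV it was 0.034 with DESeq2.

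let-7c-5p and let-7f-5p show the spread behind these values. let-7c-5p, the member with the lowest FDR after LPS, had 0.393, 0.315 and 0.379% of miRNA reads in LPS-EV (replicates 1 to 3), against 0.448, 0.780 and 0.341% in control-EV. The groups overlapped, with LPS-EV lower on days 1 and 2 and higher on day 3, and log2FC was -0.39 (SE 0.27, FDR 0.728). let-7f-5p had 2.16, 1.99 and 2.87% in VitD3-EV, against 3.63, 2.01 and 4.59% in control-EV. The groups overlapped and log2FC was -0.07 (SE 0.24, FDR 0.946), but without replicate 2 of all groups it was -0.46 with an FDR of 0.0457. Scaling mattered more for VitD3, where scaling to the miRNA total in place of TMM factors gave a median log2FC of -0.45 over the members, beside -0.28 over all miRNAs, and still called 0 members.

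In the cells, LPS-DC against control-DC called 0 of 9 members with 0.877% of 456 miRNAs called, and VitD3-DC against control-DC called 0 of 9 with 4.39% called. LPS-DC against VitD3-DC called 0 of 9 with 7.02% called. The number of members at an unadjusted p under 0.05 was 0 in each, against 13.8, 21.9 and 22.8% of all miRNAs, and DESeq2 and the likelihood ratio test of edgeR called 0. For the 8 members of the 5p arm they spanned -1.06 to 1.33 for LPS-DC over control-DC and -0.83 to 1.76 for VitD3-DC over control-DC, and in each of these comparisons 3 members had an upper bound above a 2-fold increase.

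The largest difference in the cells was that of let-7b-5p after VitD3. It had 0.0452, 0.0636 and 0.0268% of miRNA reads in VitD3-DC (replicates 1 to 3), against 0.0385, 0.0248 and 0.0431% in control-DC. The groups overlapped, since VitD3-DC was higher on days 1 and 2 and lower on day 3. log2FC was 0.85 (SE 0.42, FDR 0.257, 95% confidence interval -0.06 to 1.76), and 0.06 without replicate 2 (FDR 0.947).

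let-7d-5p had the lowest FDR of the members after both stimuli in the cells. It had 0.420, 0.266 and 0.113% of miRNA reads in LPS-DC, 0.282, 0.171 and 0.0821% in VitD3-DC, and 0.215, 0.191 and 0.0816% in control-DC. The spread between days was larger than that between treatments, and in normalized counts both treated groups were higher than control-DC on 3 of 3 days. log2FC was 0.48 (SE 0.26, FDR 0.447) after LPS and 0.54 (SE 0.26, FDR 0.254) after VitD3. For comparison, let-7e-5p, which carries the same seed from a separate cluster, had a log2FC of 2.65 (SE 0.41, FDR 0.00322) in VitD3-DC over control-DC and of 1.74 (SE 0.41, FDR 0.0513) in LPS-DC over control-DC.

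**Figure D2:**
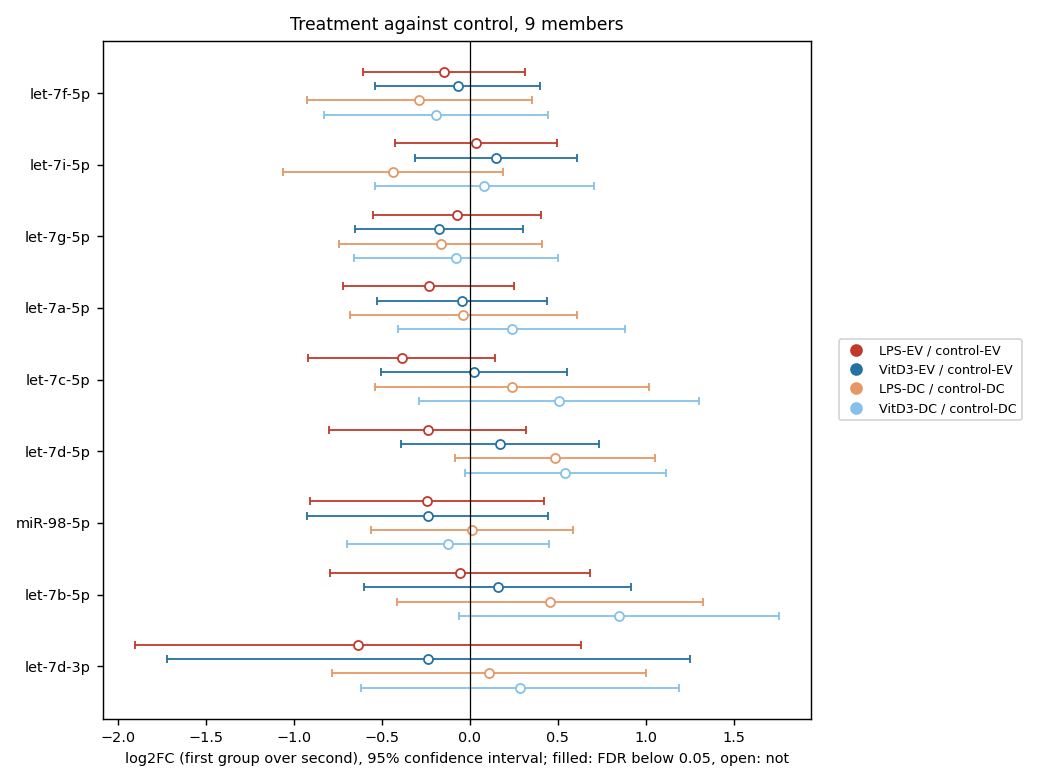
log2FC of the 9 members for LPS and VitD3 against control in EV and in DC (points, horizontal axis), with 95% confidence intervals as bars. All points are open (FDR of 0.05 or more) and all 36 intervals include 0, with let-7b-5p in VitD3-DC farthest to the right at 0.85.

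Whether a stimulus acted differently on EV and on cells was tested as an interaction over the 18 libraries with edgeR. The number of members called was 0 of 9 for LPS and 0 of 9 for VitD3, with 0% and 0.622% of 482 miRNAs called, and 0 members had an unadjusted p under 0.05, against 7.26 and 7.88% of all. DESeq2 called 0 in both. The lowest FDR was that of let-7d-5p for LPS (log2FC difference -0.77, SE 0.47, FDR 0.834).

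EV were then set against the cells that released them, with TMM normalization over the 18 libraries. On this scale, most members were lower in EV than in DC, and the largest differences were those of let-7i-5p and let-7f-5p. In LPS-EV against LPS-DC, 9 of 9 members had a negative log2FC and 0 were called, with 9.34% of 482 miRNAs called in either direction and 3.53% called lower. In VitD3-EV against VitD3-DC, 9 of 9 were negative and 1 was called lower, with 11% called and 3.32% called lower. In control-EV against control-DC, 7 of 9 were negative and 2 were called lower, with 12.4% called and 5.6% called lower. At an unadjusted p under 0.05, 7, 5 and 3 members were lower and 0 higher in the 3 comparisons, against 10.4, 11.8 and 13.1% of all miRNAs that were lower. In LPS-EV against LPS-DC, DESeq2 called 1 member.

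let-7i-5p had 19563, 11181 and 30186 normalized counts (CPM of miRNA reads after TMM scaling) in LPS-EV (replicates 1 to 3), against 26637, 26963 and 63653 in LPS-DC. It had 18007, 17982 and 24283 in VitD3-EV, against 36862, 43990 and 55922 in VitD3-DC. It had 20942, 10643 and 26075 in control-EV, against 45527, 38756 and 52253 in control-DC. The EV library was the lower of each pair, and the groups did not overlap for VitD3 and control but did for LPS. log2FC was -0.93 (SE 0.35, FDR 0.0773) for LPS, -1.19 (SE 0.35, FDR 0.0115) for VitD3 and -1.31 (SE 0.35, FDR 0.00403) for control, where EV held 0.403 times the cellular level. Without replicate 3, it was -0.78 (FDR 0.594), -1.08 (FDR 0.260) and -1.51 (FDR 0.0292). Scaling to the miRNA total gave -0.35, -0.53 and -0.65 with no call, and its share of miRNA reads was lower in EV in 9 of 9 pairs.

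let-7f-5p had 21896, 11465 and 41457 normalized counts in LPS-EV, against 33433, 34074 and 80413 in LPS-DC. It had 17571, 19841 and 31043 in VitD3-EV, against 39355, 41240 and 46678 in VitD3-DC. It had 30265, 10081 and 41823 in control-EV, against 52407, 45596 and 57933 in control-DC. EV libraries were again the lower of each pair, with overlap between groups only for LPS. log2FC was -1.03 (SE 0.36, FDR 0.0536) for LPS, -0.96 (SE 0.36, FDR 0.0731) for VitD3 and -1.08 (SE 0.36, FDR 0.0355) for control. For control it was -1.44 (FDR 0.0439) without replicate 3 and -0.45 (FDR 0.318) under scaling to the miRNA total, and it was called in 5 of 11 alternatives.

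None of the other members was called with edgeR's quasi-likelihood test. let-7g-5p, which shares G12U and U18C with let-7i-5p, had a log2FC of -0.69, -0.71 and -0.72 for LPS, VitD3 and control, with an FDR of 0.207, 0.183 and 0.159. DESeq2 called let-7g-5p lower for LPS (-0.31, FDR 0.0438) and for control (-0.47, FDR 0.000153). let-7c-5p had a log2FC of 0.06 (SE 0.35) and let-7d-5p of -0.07 (SE 0.34) in control-EV over control-DC. Within the family, let-7c-5p took a higher share of the members' reads in EV in 9 of 9 pairs and let-7d-5p in 8 of 9, while let-7i-5p took a lower share in EV in 8 of 9. The median log2FC of the 9 members was -0.84, -0.71 and -0.57 for LPS, VitD3 and control, beside -0.25, -0.36 and -0.15 over all miRNAs tested. Over the 11 settings, the median of all miRNAs lay between -0.48 (TMM over all RNA classes) and 0.48 (DESeq2), both for VitD3. The members' median stayed below that of all miRNAs in 11 of 11 settings in each comparison. The settings differ in test, block, scaling or filter and re-use the same libraries, so they are not independent. Under scaling to the miRNA total, the members' median in control-EV over control-DC was 0.11, with 3 of 9 members negative.

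**Figure D3:**
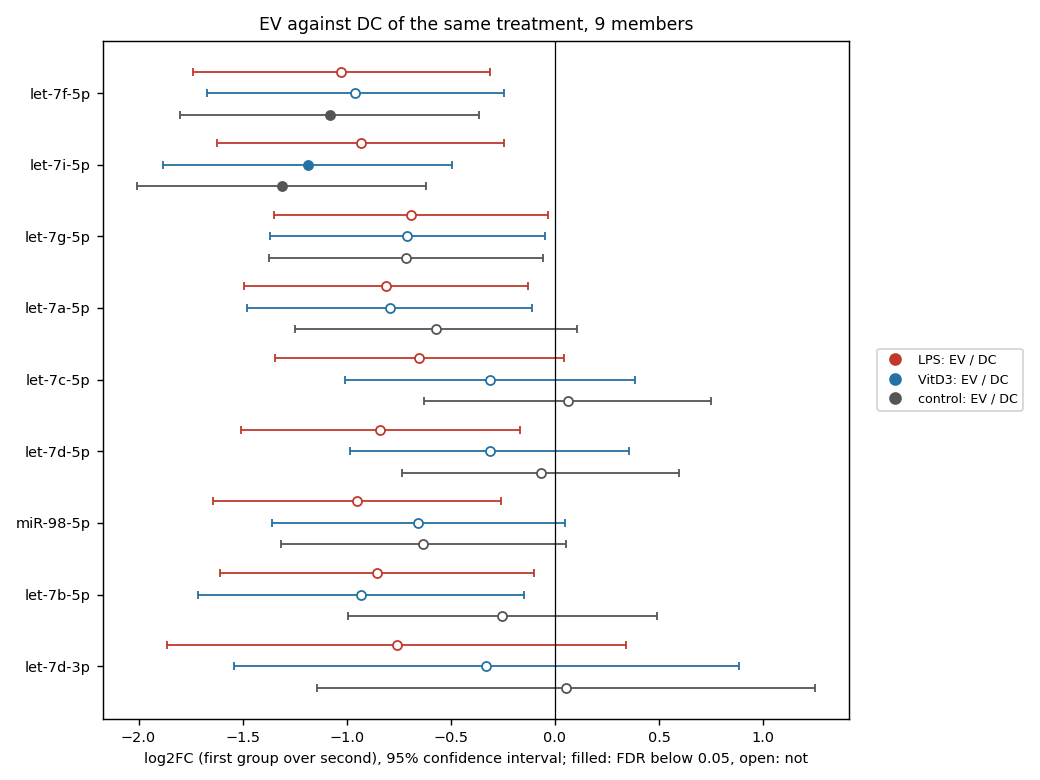
log2FC of the 9 members for EV over DC of the same treatment (points, horizontal axis), with 95% confidence intervals as bars and filled points for an FDR below 0.05. The filled points are let-7i-5p for VitD3 (-1.19) and control (-1.31) and let-7f-5p for control (-1.08).

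Other cell types' miRNAs moved with this comparison. The 5 listed stromal miRNAs all had reads and summed to 0.00126 to 0.153% of miRNA reads in EV libraries, against 0.000195 to 0.00541% in DC libraries. Without replicate 3, they summed to 0.00126 to 0.0408% in EV and 0.000195 to 0.00195% in DC. Of the stromal miRNAs tested, 2 of 3 were called higher in EV for each of LPS, VitD3 and control. For the same comparisons in that order, 3, 4 and 2 of 5 muscle miRNAs, 1, 2 and 2 of 2 endothelial miRNAs and 1, 2 and 2 of 2 erythroid miRNAs were called higher. So were 0, 1 and 1 of the 1 liver miRNA and 1, 1 and 0 of 7 epithelial miRNAs. Of all miRNAs tested, 5.81, 7.68 and 6.85% were called higher. Outside replicate 3, the muscle miRNAs summed to at most 0.0136% of miRNA reads in EV, with 2 to 10 reads per EV library. In DC they summed to at most 0.0202%, the value of control-DC replicate 2. Whether their calls hold without replicate 3 was not tested. Of the 7 myeloid miRNAs, 0 were called higher, and 1 was called lower for VitD3. The part of these miRNAs in the differences of the members was not tested.

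The miRNAs encoded beside let-7 hairpins were compared next, since Mirlet7a-2 has Mir100 and Mir125b-1 and Mirlet7c-1 has Mir99a and Mir125b-2 on the same strand. miR-125b-5p is the product of both of its hairpins and was set against let-7a-5p. These neighbours were higher in EV than in DC in most comparisons. Of the 3, 3 were called higher for LPS, 2 for VitD3 and 3 for control, with 5.81, 7.68 and 6.85% of all miRNAs called higher. miR-100-5p had a log2FC of 1.98 (SE 0.56, FDR 0.00984), 3.64 (SE 0.61, FDR 1.53e-06) and 2.07 (SE 0.58, FDR 0.00716) for LPS, VitD3 and control. miR-99a-5p had 1.47 (FDR 0.0429), 1.38 (FDR 0.0731) and 2.11 (FDR 0.00125), and miR-125b-5p had 2.18 (FDR 0.00922), 2.79 (FDR 0.0016) and 3.18 (FDR 7.2e-05). let-7a-5p and let-7c-5p also have hairpins elsewhere, so that their counts do not measure these loci alone.

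These neighbours were scarce, and most of their EV reads came from replicate 3. miR-99a-5p had 238 EV reads in all, miR-100-5p 137 and miR-125b-5p 83, of which 80.7, 83.9 and 79.5% were from replicate 3. Per 100 reads of let-7a-5p, miR-100-5p had a median of 0.539 in EV and 0.0350 in DC, and miR-125b-5p of 0.276 in EV and 0.0168 in DC. Per 100 reads of let-7c-5p, miR-99a-5p had a median of 1.90 in EV and 0.662 in DC. The share of miRNA reads was higher in EV in 9 of 9 pairs for miR-99a-5p and in 7 of 9 for each of the others, which had 0 reads in 2 EV libraries each. Without replicate 3, all 9 log2FC were positive (0.77 to 3.00) and 0 were called, with a lowest FDR of 0.102.

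**Figure D4:**
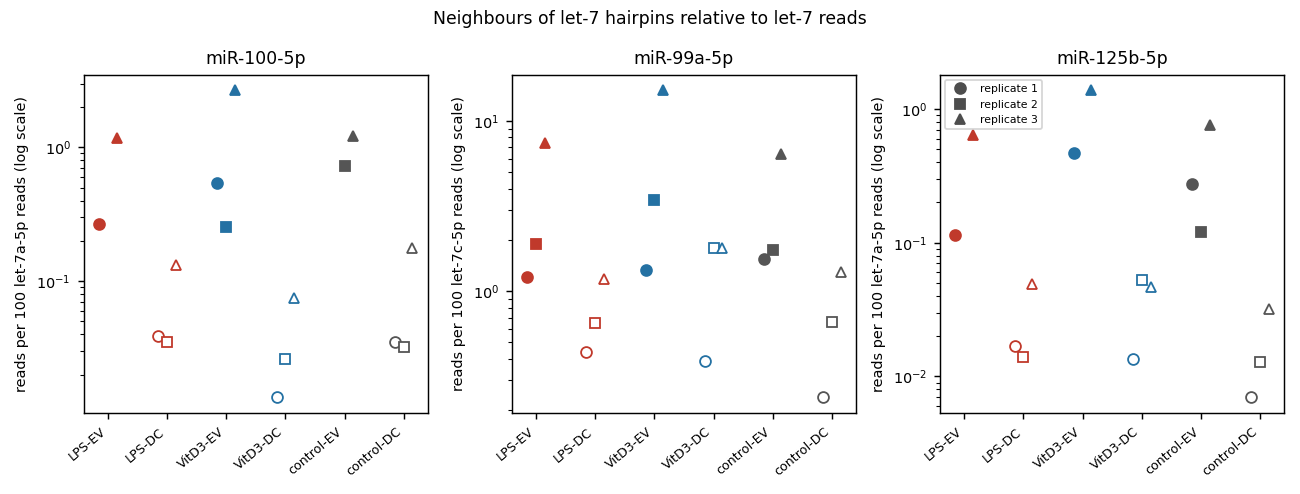
Reads of miR-100-5p and miR-125b-5p per 100 reads of let-7a-5p, and of miR-99a-5p per 100 reads of let-7c-5p, in each library (logarithmic vertical axis; filled symbols are EV, open symbols DC). Libraries with 0 reads, 2 in EV for each of miR-100-5p and miR-125b-5p, are not drawn, and triangles (replicate 3) are the highest EV value in each group.

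The composition of the family differed between replicate numbers. Replicate 3 was set against replicates 1 and 2 with edgeR in each compartment, a test added after the values had been seen. Replicate 3 was taken as 1 day, and its libraries served as replicates of that day. SE and FDR of this test measure the spread of libraries left after group and day means, not the spread between days. Replicate 3 of every group is labelled sequencing run 2, so that experiment day and run cannot be told apart. In EV, let-7f-5p was higher in replicate 3 with a log2FC of 1.15 (SE 0.20, FDR 5.61e-07) and let-7i-5p with 0.79 (SE 0.20, FDR 0.000856). Thus 2 of 9 members were called, beside 21% of all miRNAs. This count is near the share of all miRNAs and does not set the family apart. In DC, let-7d-5p was lower with a log2FC of -1.13 (SE 0.24, FDR 0.00962), 1 of 9 called with 7.24% of all. let-7d-5p in EV had -0.58 (FDR 0.0922), and in DC let-7i-5p had 0.69 (FDR 0.118) and let-7f-5p 0.58 (FDR 0.217). In EV, let-7f-5p was called in 8 of 8 alternatives and let-7i-5p in 7 of 8, with 0.31 (FDR 0.142) under scaling to the miRNA total. miR-98-5p, not called above, was called in 4 of 8 and let-7d-5p in 2 of 8. In DC, let-7d-5p was called in 7 of 8, with -1.10 (FDR 0.163) under TMM over all RNA classes.

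Shares within the family, which do not depend on other miRNAs, separated the replicates. let-7d-5p took 0.622 to 1.71% of the members' reads in the 6 libraries of replicate 3 (median 1.11%), against 1.77 to 4.12% in the 12 libraries of replicates 1 and 2 (median 2.78%). let-7g-5p took 8.58 to 11.1% (median 9.98%), against 13.6 to 23.2% (median 16.8%). Neither member's ranges overlapped, in EV and DC together. Shares within the family have a fixed sum, so that a higher share of some members lowers that of others. In normalized counts, let-7g-5p in replicate 3 had a log2FC of -0.19 (FDR 0.636) in EV and -0.27 (FDR 0.568) in DC, neither called. It was called in 1 of 8 alternatives in EV and 0 of 8 in DC. let-7f-5p took 35.1 to 44.3% (median 40.7%), against 22.6 to 37.5% (median 32.2%), and let-7i-5p took 27.6 to 42.0% (median 32.4%), against 23.8 to 32.5% (median 28.4%), both with overlap. The ratio of let-7g-5p to let-7i-5p, which are 2 bases apart (A17G, A19U from let-7g-5p to let-7i-5p), was 0.217 to 0.370 in replicate 3 and 0.420 to 0.974 in replicates 1 and 2. The ratio of let-7d-5p to let-7f-5p was 0.0156 to 0.0430 in replicate 3 and 0.0481 to 0.180 in replicates 1 and 2.

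**Figure D5:**
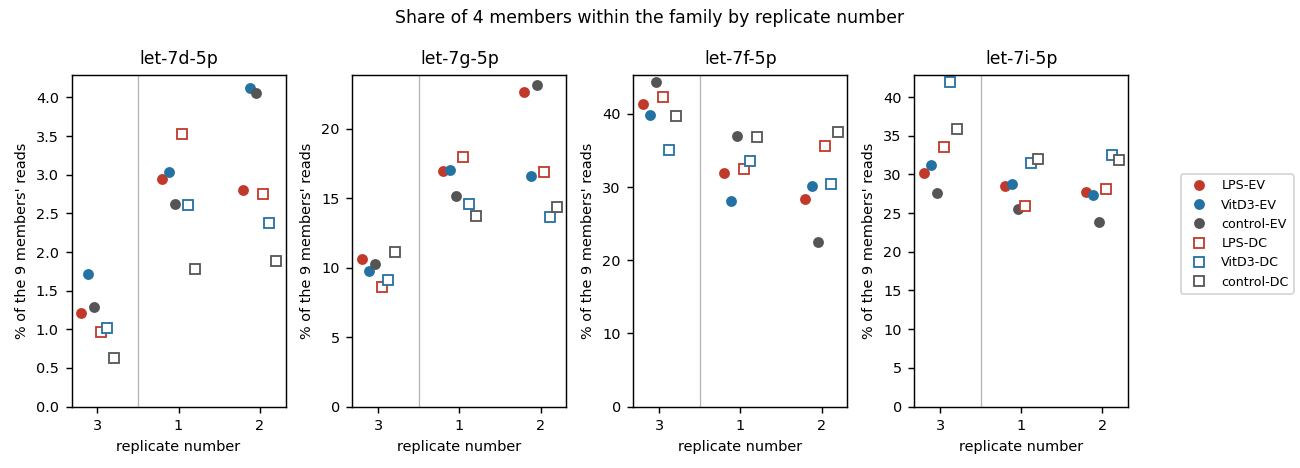
Share of the 9 members' reads (percent, linear axis) taken by let-7d-5p, let-7g-5p, let-7f-5p and let-7i-5p in each library, by replicate number (filled circles are EV, open squares DC). Replicate 3 lies below replicates 1 and 2 for let-7d-5p (at most 1.71%) and let-7g-5p (at most 11.1%) in all 6 groups.

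Arms opposite to the guide strands were nearly absent. The 10 listed passenger arms had 55 reads in EV and 453 in DC, or 0.0443% and 0.0249% of the reads of the 8 members of the 5p arm, and 2 of them in EV and 6 in DC reached 10 reads. let-7d-3p was the exception, with 68 reads in EV and 778 in DC, which is more than the 10 other arms together. let-7d-3p had 2.65% of the reads of let-7d-5p in EV and 2.37% in DC. The log2 ratio of the arms was -5.55 ± 1.23 in EV and -5.33 ± 0.615 in DC (SD, n = 9 each). The mean difference of EV minus DC was -0.22 with an SD of 1.47 over 9 pairs (exact two-sided sign-flip permutation test, p = 0.684, where 0.00391 is the smallest p that 9 pairs allow), and EV was higher in 5 of 9 pairs. let-7d-3p had 0 reads in LPS-EV replicate 2 and in VitD3-EV replicate 2, and a difference in arm use was not detectable at this depth.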

How the data were processed

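Small RNA libraries of 9 EV and 9 DC samples (3 groups of 3 in each compartment) were analysed from the deposited count table. In it, the authors gave whole-number counts of reads per RNA and library, not normalized. Per the submitters' processing notes and the study's methods, adapters were removed with cutadapt 1.8, gsnap was used for alignment to mm10, and HTSeq 0.6.1p1 counted by strand against miRBase 20 and Ensembl 84.

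miRNA entries with at least 10 reads in the libraries of a fit were tested with edgeR 4.0.16 (R 4.3.3; quasi-likelihood, two-sided, prior count 2), TMM factors within miRNAs, replicate number as a block, and Benjamini-Hochberg adjustment over all miRNA entries tested. Treatments were compared within the 9 EV or 9 DC libraries, EV with DC and interactions in 1 fit of 18. A call is an FDR below 0.05. Intervals are 95% model intervals. SE was derived from log2FC and F. Values by library are shares of miRNA reads or normalized counts. The let-7d arm ratio used a pseudocount of 0.5.

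Replicate numbers were taken as experiment days, and the block follows the study's methods, which included a day effect. In a check over miRNAs, residuals of like-numbered samples were correlated at 0.117 to 0.731 in EV, over 0.1 for 9 of 9 pairs. In DC the range was 0.0706 to 0.886, over 0.1 for 8 of 9. Unlike-numbered pairs were over 0.1 for 5 of 18 in EV (highest 0.316) and 4 of 18 in DC (highest 0.662). All of these were between replicates 1 and 2. The check thus set replicate 3 apart. It does not settle the matching of replicates 1 and 2, since unlike-numbered pairs among them exceeded some like-numbered pairs. Alternatives were DESeq2 1.42.0, a likelihood ratio test, no block, other scalings and filters, 1 entry per mature miRNA, the entry of the other hairpin and libraries left out. Scripts were tested on simulated data.

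All 9 members are described; genes outside them are named if they carry the seed, adjoin a hairpin, are listed markers or rank among the 5 most similar. Members and lists were chosen with earlier results of these data known. Sequences and hairpin positions are from RefSeq (GRCm38.p6). Depth was 410968 to 3053774 counted reads per EV library and 12427662 to 42065263 per DC library.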

Additional observations from a re-analysis of the deposited data

How the results depend on the processing

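The treatment comparisons and interactions kept 0 members called under every alternative, except that VitD3-EV against control-EV ranged 0 to 1 when libraries were left out, with let-7f-5p called without replicate 2. Counts of members called for EV against DC were less firm. For LPS (0 called), DESeq2 gave 1, 1 entry per mature miRNA 2 and a block by pair of EV and DC 1. For VitD3 (1 called), no replicate block gave 0, DESeq2 size factors 0, scaling to the miRNA total 0, TMM over all RNA classes 2, a minimum of 1 read 2 and 1 entry per mature miRNA 2. For control (2 called), no replicate block gave 0, DESeq2 3, DESeq2 size factors 1, scaling to the miRNA total 0, TMM over all classes 1 and edgeR's own filter 1. With libraries left out, the counts ranged 0 to 3 for LPS (3 without control-DC replicate 3), 0 to 6 for VitD3 (6 without LPS-EV replicate 2, the smallest library, and 0 without replicate 1 or replicate 3 of all groups or without VitD3-EV replicate 1, VitD3-EV replicate 3 or VitD3-DC replicate 2) and 0 to 3 for control (0 without replicate 1 or control-EV replicate 2). The causes were not tested. The let-7d arm difference was 0.043 with a pseudocount of 1 (exact permutation p = 0.922), -0.22 without the pairing (p = 0.643) and -0.52 to 0.14 with libraries left out. Between replicate 3 and replicates 1 and 2 of EV, let-7a-5p had a log2FC of -0.068 under scaling to the miRNA total, against 0.42 with TMM factors, neither called, and was called in 1 of 8 alternatives (0.90, FDR 0.000325, under TMM over all classes).

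Few reads limit let-7d-3p and the hairpin neighbours in EV, and sampling of 2 ng of EV RNA limits every EV value beyond what its counts show. Intervals cover these 3 days only. let-7a-5p, let-7f-5p, let-7c-5p and let-7b-5p are separated by single bases. Shares of reads are relative, so that none of these values measures molecules per cell or per vesicle.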

Other observations

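A pair of hairpins gives the same let-7c-5p, yet the table's entries for them differ. The entry not used had 28919 reads against 62570 in the entry used (46.2%), and in single libraries 25.3 to 61.6%. The same comparison gave 99.4% for let-7a-5p and 94.4% for let-7f-5p. By the study's methods, the aligner was set to report several placements of a read, and counting set no minimum alignment quality. The part of these settings in the difference was not tested.

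VitD3-DC replicate 2 is labelled sequencing run 2, as are the libraries of replicate 3, while its let-7 shares lay with replicates 1 and 2. let-7g-5p took 13.6% of the members' reads in it and let-7d-5p 2.37%, against at most 11.1% and 1.71% in replicate 3. The description of this library carries the flow cell prefix of the run 1 libraries, so that its run is uncertain.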
